A study of Mus musculus with 28 samples.

Results

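The enzymes described here build the purine and pyrimidine nucleotides of RNA and DNA and the one-carbon units that this synthesis consumes. They are 33 genes chosen by name for their place in these pathways, of 18193 genes tested on the arrays. For 32 of them a probe set that matches 1 gene was found, and each was measured by its brightest such probe set. The remaining gene, Impdh2 (IMP dehydrogenase), had no probe set named in the annotation used here. By role, 10 of the measured genes serve deoxynucleotide supply, 5 pyrimidine synthesis, 12 purine synthesis and salvage, and 5 the folate-bound one-carbon pool.

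The ADR group comprised 14 cultures treated for 5 days with the DNA-damaging drug adriamycin (ADR) at 0.05 µg/ml, labelled as undergoing treatment-induced senescence, and the untreated group 14 matched cultures of the same lymphomas. All cultures carried the Emu-myc transgene, which drives Myc in the B lineage of C57BL/6 mice, and a Bcl2 retrovirus that protects from apoptosis, selected with puromycin for 48 h. All cells grew on NIH 3T3 mouse fibroblast feeders irradiated with 20 Gy. Each lymphoma gave 1 array per group, and the numbers 403 to 9584 that name the lymphomas are those of the labels.

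De novo purine synthesis assembles the base stepwise on activated ribose and takes up formyl groups carried by tetrahydrofolate, while pyrimidine synthesis makes the ring first and attaches the ribose later. Ribonucleotide reductase then converts ribonucleotides to deoxyribonucleotides, and thymidylate synthase methylates dUMP at the cost of a folate one-carbon unit. In cells that copy DNA, the reductase subunits and thymidine kinase are known to be made mainly around S phase, and many genes of purine and pyrimidine synthesis are known Myc targets in B-cell lymphoma.

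Values are log2 RMA levels, which have no absolute unit and can be compared between arrays for 1 probe set but not between probe sets. B-cell receptor genes Cd79a and Cd79b stood at 8.58 to 11.9 and 10.1 to 12.1 in ADR arrays. In untreated arrays they stood at 9.96 to 11.9 and 10.6 to 11.9. Of the other B-cell markers, Cd22 ran from 8.06 to 11.2 and Pax5 from 5.12 to 5.69 in ADR arrays. In untreated arrays Cd22 ran from 9.68 to 11.7 and Pax5 from 5.27 to 5.94. The B-cell list was mixed: the mean change of Ms4a1 was positive, at 0.40 (limma adjusted p = 0.415). Those of Ebf1 and Blk were -0.62 and -0.66 (limma adjusted p = 0.0120 and 0.122). The T-cell genes Cd3e, Cd3d and Cd3g did not exceed 6.12 on any array. Because these levels belong to different probe sets, they do not rank B-cell against T-cell RNA. Cd28 ran from 3.20 to 10.0 in ADR arrays and from 2.97 to 9.77 in untreated arrays. Fibroblast RNA moved with treatment: 19 of 20 fibroblast markers rose, and the list's mean level ran from 4.89 to 9.11 in ADR arrays and from 4.61 to 5.51 in untreated arrays. Its change ran from -0.12 in lymphoma 1467 to 4.16 in lymphoma 403. Of 14 macrophage markers 9 rose (mean level 5.75 to 9.13 in ADR arrays, 4.87 to 8.13 in untreated arrays), 4 of 7 B-cell markers fell, and 0 of 6 T-cell markers changed (lowest limma adjusted p = 0.0604, for Cd28). All 24 measured G2/M genes fell, by a list mean that ran from -4.01 in lymphoma 2949 to -0.27 in lymphoma 9584. In such bulk cultures, fewer cells of a type and less RNA per cell cannot be told apart. The ADR array of lymphoma 1570 had the highest 3'/5' signal difference of Gapdh (0.92, next 0.38). It also had the highest such difference of Actb (0.92, next ADR array 0.70, highest untreated array 0.76). The lowest changes of the one-carbon genes Mthfd2 (-1.66) and Mthfd1l (-1.37) were those of lymphoma 1570.

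Most of the nucleotide genes were lower after ADR. Of the 32 measured members, 20 fell, 2 rose and 10 did not pass the test (limma with lymphoma as a block, Benjamini-Hochberg adjusted p over all genes, threshold 0.05). Among all genes 28.7% were called in either direction, 13.4% lower and 15.3% higher. With the change of the fibroblast list as a covariate, 7 members were lower and 2 higher, against 5.04% and 5.8% of all genes. The median change of the members without it was -0.49, against -0.0011 over all genes. The deoxynucleotide genes had the lowest median change (-0.95, 7 of 10 lower), followed by one-carbon (-0.50, 5 of 5 lower), purine (-0.42, 6 of 12 lower and 1 higher) and pyrimidine genes (-0.25, 2 of 5 lower and 1 higher). By lymphoma, the number of the 32 members that were lower ran from 14 to 28. The 14 belonged to lymphoma 2949, where the median member change was 0.07. No share of all genes was set beside these counts.

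**Figure D1:**
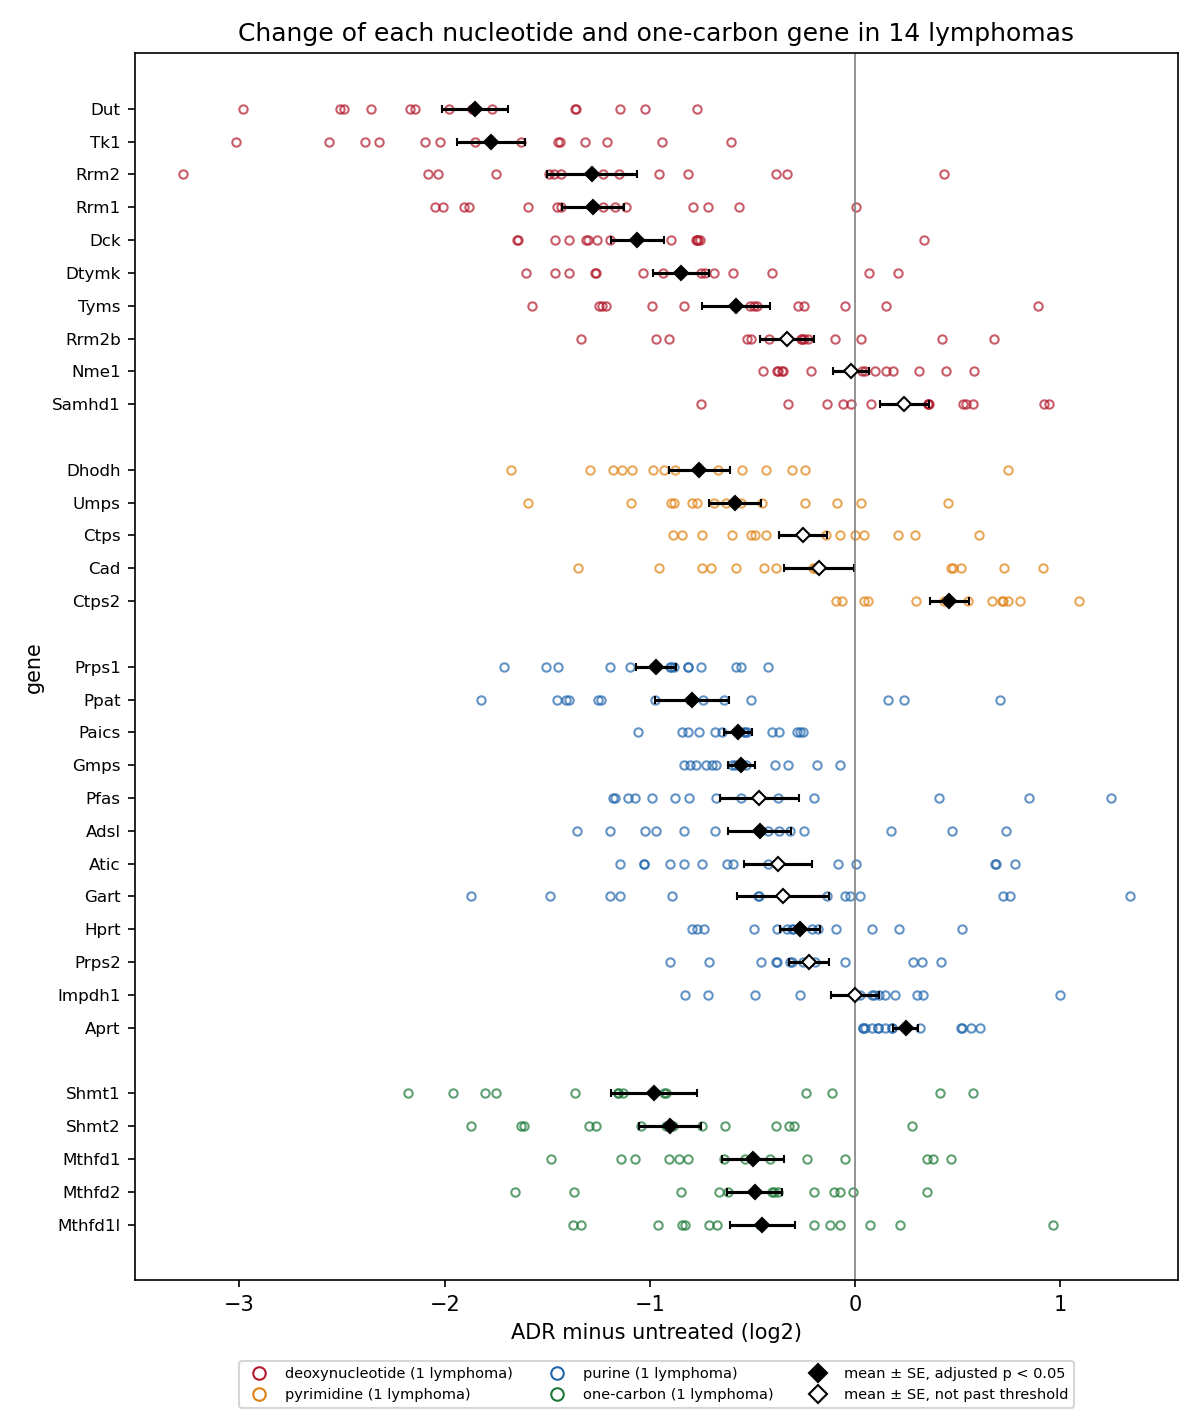
ADR minus untreated change (log2, horizontal axis) of each measured gene, grouped by role; open circles are the 14 lymphomas and diamonds the mean with its SE from the moderated fit, filled where the adjusted p is under 0.05. Dut and Tk1 lie below 0 in all 14 lymphomas, while Gart spreads from -1.87 to 1.34.

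Ribonucleotide reductase is made of a large catalytic subunit, Rrm1, and a small radical-bearing subunit, Rrm2. Rrm1 stood at 8.06, 9.09 and 10.2 (lowest, median and highest) in ADR cultures, against 9.67, 10.5 and 10.9 in untreated cultures. Its change was -1.28 ± 0.15 (SE, n = 14 pairs, limma adjusted p = 1.71e-05), and it was lower in 13 of 14 lymphomas. Levels overlapped between the groups through the ADR culture of lymphoma 9584, which held the highest ADR level and changed by 0.01. Rrm2 stood at 8.48, 10.0 and 11.5 in ADR cultures, against 10.5, 11.4 and 12.0 in untreated cultures, a change of -1.28 ± 0.22 (limma adjusted p = 3.78e-04). The change of Rrm2 spread widely, from -3.28 in lymphoma 2949 to 0.43 in lymphoma 9584, and these are also the lymphomas with the largest and smallest fall of the G2/M genes. All 3 probe sets of each subunit fell. Because both subunits moved together, their RefSeq promoter windows (GRCm38.p6, 250 bases before to 50 after the start) are shown, with CCAAT boxes, the binding motif of NF-Y, in capitals. The Rrm1 window lies at chr7:102441445-102441744 on the plus strand and the Rrm2 window at chr12:24708004-24708303 on the plus strand.
Rrm1: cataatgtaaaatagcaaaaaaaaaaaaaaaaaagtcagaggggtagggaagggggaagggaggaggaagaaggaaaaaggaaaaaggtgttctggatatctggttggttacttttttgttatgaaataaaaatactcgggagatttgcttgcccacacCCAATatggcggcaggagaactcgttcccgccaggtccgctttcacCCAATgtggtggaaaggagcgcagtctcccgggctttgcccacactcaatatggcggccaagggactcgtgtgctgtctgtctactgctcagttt
Rrm2: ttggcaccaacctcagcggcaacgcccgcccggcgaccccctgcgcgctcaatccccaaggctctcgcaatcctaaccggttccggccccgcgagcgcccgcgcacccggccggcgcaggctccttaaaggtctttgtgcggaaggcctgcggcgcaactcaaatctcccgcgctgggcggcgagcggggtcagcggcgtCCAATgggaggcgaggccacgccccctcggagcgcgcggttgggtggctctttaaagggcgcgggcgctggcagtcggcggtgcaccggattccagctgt
The Rrm1 window holds 2 such boxes and the Rrm2 window 1, on the printed strand, and neither holds CACGTG or an E2F motif of the set given further on. CCAAT, searched on both strands, is present in 37.4% of all 32851 windows and in 12 of the 35 windows of members, so a match is a description only.

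The other small-subunit gene had a smaller change. Rrm2b encodes the subunit that is known as a p53 target and serves repair and mitochondrial DNA in resting cells. It stood at 7.40, 7.70 and 8.06 in ADR cultures, against 7.29, 7.99 and 8.96 in untreated cultures, so that the ADR levels lay within the untreated range. Its change of -0.33 ± 0.13 did not pass (limma adjusted p = 0.0735), although it passed without lymphoma 1570 (0.0360) or without lymphoma 9583 (0.0191), and its 2 dimmest probe sets did fall (-0.41 and -0.48). The p53 targets Cdkn1a, a cell-cycle inhibitor, and Mdm2, the p53 ubiquitin ligase, rose in the same pairs (1.11 ± 0.19 and 1.22 ± 0.20, limma adjusted p = 3.49e-04 and 3.11e-04). Cdkn1a was higher in 14 of 14 lymphomas and Mdm2 in 13, with -0.50 in lymphoma 2949. With the fibroblast covariate neither passed, at 1.00 ± 0.33 and 0.99 ± 0.35 (adjusted p = 0.0652 and 0.0857).

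The lowest changes among the members belonged to 2 enzymes that keep thymidine nucleotides supplied and uracil out of DNA. Dut, the dUTPase that makes dUMP and removes dUTP, stood at 7.40, 8.52 and 9.30 in ADR cultures, against 10.0, 10.4 and 10.9 in untreated cultures. Every ADR culture lay below every untreated culture, a pattern shown by 0.192% of all genes and by 1 of the 32 members. The change was -1.85 ± 0.16 (limma adjusted p = 2.23e-06), a ratio of 0.277, and ranks at 43 from the lowest of all genes. Tk1, the cytosolic thymidine kinase, stood at 6.12, 7.42 and 8.26 in ADR cultures, against 7.97, 9.33 and 9.77 in untreated cultures. It was lower in 14 of 14 lymphomas, with a change of -1.77 ± 0.17 (limma adjusted p = 3.61e-06), and its groups overlapped only between the highest ADR and the lowest untreated cultures.

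Other kinases of the salvage route fell as well. Dck, which phosphorylates deoxycytidine, stood at 8.51, 9.44 and 10.5 in ADR cultures, against 9.75, 10.6 and 11.5 in untreated cultures (change -1.06 ± 0.13, limma adjusted p = 2.19e-05). Lymphoma 9584 was again the exception, at 0.33. Dtymk, the thymidylate kinase, stood at 8.05, 9.22 and 9.78 in ADR cultures, against 8.86, 10.1 and 10.6 in untreated cultures (change -0.85 ± 0.14, limma adjusted p = 2.34e-04). It was lower in 12 lymphomas, the exceptions being 1467 and 9584.

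Tyms, thymidylate synthase, was dim on its brightest unshared probe set, at 3.84, 4.32 and 5.02 in ADR cultures, against 3.89, 5.05 and 6.01 in untreated cultures. It fell (change -0.58 ± 0.16, limma adjusted p = 0.0138), in 12 of 14 lymphomas, but its other 3 probe sets did not pass. A brighter probe set that the annotation gives to both Tyms and its pseudogene Tyms-ps had a change of -0.79 ± 0.18 (limma adjusted p = 0.00380 over all 45101 probe sets), and its signal cannot be assigned to either. Samhd1, the triphosphohydrolase that degrades dNTPs, stood at 8.75, 9.58 and 10.7 in ADR cultures, against 8.67, 9.38 and 10.8 in untreated cultures. Its change of 0.24 ± 0.12 did not pass (limma adjusted p = 0.155), except without lymphoma 403 (0.32, adjusted p = 0.0347). Nme1, a nucleoside diphosphate kinase, had a change of -0.02 ± 0.09 (limma adjusted p = 0.903) and was higher in 8 and lower in 6 lymphomas.

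**Figure D2:**
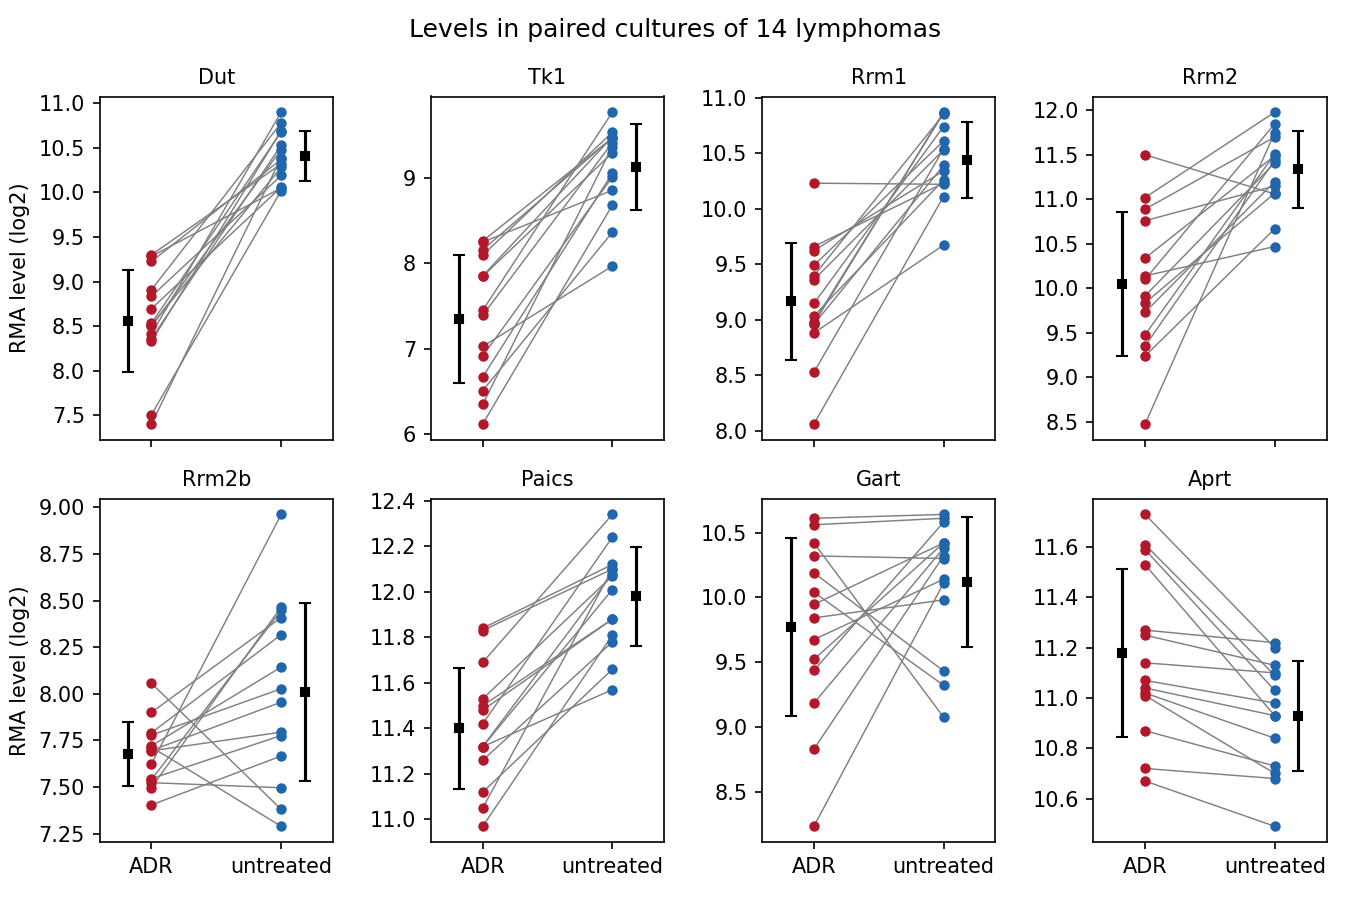
Log2 RMA level of 8 genes in the ADR (left, red) and untreated (right, blue) culture of each lymphoma, with lines joining the 14 pairs and black squares giving the mean with its SD. The Dut groups do not overlap, the Rrm2b levels of ADR cultures lie within the untreated range, and Aprt is higher in ADR in every pair.

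Pyrimidine synthesis changed unevenly along its steps, and none of its 3 calls held with the fibroblast covariate. Cad, the enzyme of the first steps up to dihydroorotate, stood at 7.51, 8.58 and 9.71 in ADR cultures, against 8.05, 8.86 and 9.59 in untreated cultures. The groups overlapped almost fully, 5 lymphomas were higher and 9 lower, and the change of -0.18 ± 0.17 did not pass (limma adjusted p = 0.507). A dimmer Cad probe set did fall (-0.68 ± 0.16, limma adjusted p = 0.00469). Dhodh, the mitochondrial dihydroorotate dehydrogenase, stood at 6.33, 7.17 and 7.88 in ADR cultures, against 6.61, 8.05 and 8.50 in untreated cultures. It fell in 13 of 14 lymphomas (change -0.76 ± 0.15, limma adjusted p = 0.00101), the exception being 2949 at 0.75. Umps, which makes UMP, stood at 7.64, 8.01 and 8.40 in ADR cultures, against 7.53, 8.68 and 9.28 in untreated cultures (change -0.59 ± 0.13, limma adjusted p = 0.00251).

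The last step, from UTP to CTP, is catalysed by the products of 2 genes. Ctps stood at 9.15, 9.46 and 10.8 in ADR cultures, against 9.08, 9.84 and 10.2 in untreated cultures, and its change of -0.25 ± 0.12 did not pass (limma adjusted p = 0.117), except without lymphoma 403 (-0.32, adjusted p = 0.0345). Ctps2 stood at 7.32, 8.32 and 8.82 in ADR cultures, against 7.24, 7.87 and 8.25 in untreated cultures. It rose in 12 of 14 lymphomas (change 0.46 ± 0.09, limma adjusted p = 0.00158), by 1.09 at most in lymphoma 7050, although its 2 dimmer probe sets did not pass (0.18 and 0.14).

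In the purine pathway 3 genes were lower in every lymphoma, while several others were higher in some lymphomas. Prps1, which makes the activated ribose PRPP, stood at 8.30, 9.08 and 9.59 in ADR cultures, against 9.52, 10.1 and 10.3 in untreated cultures (change -0.97 ± 0.10, limma adjusted p = 5.92e-06, lower in 14 of 14). Its levels overlapped between only the highest ADR and the lowest untreated cultures. Paics, the bifunctional enzyme of the sixth and seventh steps, stood at 10.97, 11.4 and 11.8 in ADR cultures, against 11.6, 12.0 and 12.3 in untreated cultures (change -0.57 ± 0.07, limma adjusted p = 1.80e-05, lower in 14 of 14). Gmps, the GMP synthetase, stood at 9.60, 10.3 and 10.5 in ADR cultures, against 10.3, 10.6 and 11.1 in untreated cultures (change -0.56 ± 0.07, limma adjusted p = 1.71e-05, lower in 14 of 14). Among all genes 471 were lower in all 14 lymphomas; 5 members were, namely Dut, Tk1, Prps1, Paics and Gmps.

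Ppat encodes the amidotransferase that commits PRPP to purine synthesis, and its start lies 276 bases from that of Paics on the opposite strand, placed so that the annotated 5' ends of both genes overlap. Ppat stood at 7.10, 8.47 and 8.98 in ADR cultures, against 8.27, 9.32 and 9.81 in untreated cultures, and fell on average (change -0.79 ± 0.18, limma adjusted p = 0.00335). Unlike Paics, it was higher in 3 lymphomas, by 0.16 in 1467, 0.70 in 2949 and 0.24 in 5043. The windows of both genes are shown because their starts are close neighbours while only Ppat was higher in some lymphomas. Capitals mark the E-box CACGTG and a CCAAT box in the Paics window, at chr5:76951052-76951351 on the plus strand, and 2 E2F motifs, TTTCCCGC read on the opposite strand, in the Ppat window, at chr5:76951529-76951828 on the minus strand (GRCm38.p6, RefSeq).
Paics: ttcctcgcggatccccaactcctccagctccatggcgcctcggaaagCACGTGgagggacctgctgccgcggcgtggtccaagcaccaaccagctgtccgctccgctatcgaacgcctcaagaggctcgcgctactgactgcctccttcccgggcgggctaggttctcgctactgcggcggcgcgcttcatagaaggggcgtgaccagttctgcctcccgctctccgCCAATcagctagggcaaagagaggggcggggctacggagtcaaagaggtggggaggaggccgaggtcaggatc
Ppat: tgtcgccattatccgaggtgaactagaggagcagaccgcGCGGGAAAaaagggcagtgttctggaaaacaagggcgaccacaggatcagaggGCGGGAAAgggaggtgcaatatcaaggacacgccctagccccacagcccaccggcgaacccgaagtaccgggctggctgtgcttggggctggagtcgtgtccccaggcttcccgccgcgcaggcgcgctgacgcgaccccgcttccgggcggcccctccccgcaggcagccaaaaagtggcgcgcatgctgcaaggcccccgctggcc
E-boxes of this form, the motif bound by Myc and Max, are in 7.15% of all windows and in 7 of 35 member windows (6 of the 30 genes with an entry, namely Atic, Dtymk, Impdh2, Nme1, Paics and Tyms). The E2F set TTTGGCGC, TTTCCCGC, TTTGCCGC and TTTCGCGC is in 2.26% of all windows and in 2 member windows, those of Ppat and Prps2. The E-box and E2F letters were searched on both strands, and a window without a match says only that these letters are not in it. Whether these motifs bear on the difference between Ppat and Paics was not tested.

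Of the enzymes between Ppat and IMP, Gart, Pfas and Adsl were higher in the same lymphomas as Ppat. Paics was lower in all of these, and Atic was higher in 1467 and 2949 but not in 5043. Gart, the trifunctional enzyme that takes up the first formyl group, stood at 8.24, 9.89 and 10.6 in ADR cultures, against 9.08, 10.3 and 10.6 in untreated cultures. Its changes ran from -1.87 in lymphoma 5560 to 1.34 in lymphoma 1467, and their mean of -0.35 ± 0.22 did not pass (limma adjusted p = 0.279), although 2 of its 4 probe sets fell. Pfas, the FGAM synthase, stood at 7.12, 7.995 and 8.50 in ADR cultures, against 7.14, 8.66 and 9.35 in untreated cultures. Its change of -0.47 ± 0.19 did not pass (limma adjusted p = 0.0828) but passed without lymphoma 1467 (0.0108) or without 2949 (0.0269). Adsl, adenylosuccinate lyase, stood at 7.96, 8.90 and 9.51 in ADR cultures, against 8.33, 9.34 and 9.77 in untreated cultures. It fell (-0.47 ± 0.15, limma adjusted p = 0.0303), a call that ended when any of 6 lymphomas was left out (highest adjusted p = 0.0664, without 3769).

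Atic, the enzyme that takes up the second formyl group and closes the ring, stood at 9.24, 9.92 and 10.7 in ADR cultures, against 9.03, 10.5 and 10.99 in untreated cultures. Its change of -0.38 ± 0.17 did not pass (limma adjusted p = 0.112), while leaving out 1467, 2949 or 6054 gave adjusted p between 0.0376 and 0.0488, and its second probe set fell (-0.82 ± 0.21, limma adjusted p = 0.00842). It was higher in 1467 (0.78), 2949 (0.69), 6054 (0.68) and 9583 (0.01), and lower in 5043 (-0.08). Ppat, Gart, Pfas and Adsl, by contrast, were all higher in 1467, 2949 and 5043, and outside these lymphomas higher only once, with Gart at 0.02 in 1570. Paics, whose step lies between those of Pfas and Adsl, changed in 1467, 2949 and 5043 by -0.27, -0.54 and -0.65. The pattern was not confined to these steps. Hprt (0.21, 0.08 and 0.52) and the one-carbon gene Mthfd1 (0.35, 0.47 and 0.38) were also higher in 1467, 2949 and 5043 and lower in all others. These lymphomas had the lowest changes of the fibroblast list (-0.12, 0.51 and 0.49).

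The remaining purine genes differed in direction. Hprt, which salvages hypoxanthine and guanine, stood at 10.8, 11.5 and 11.8 in ADR cultures, against 11.3, 11.7 and 12.1 in untreated cultures. It fell (-0.27 ± 0.10, limma adjusted p = 0.0471), but leaving out any of 11 lymphomas ended that call, with adjusted p up to 0.0991. Aprt, which salvages adenine, stood at 10.7, 11.1 and 11.7 in ADR cultures, against 10.5, 10.96 and 11.2 in untreated cultures. It rose in 14 of 14 lymphomas by a small amount (0.25 ± 0.06, limma adjusted p = 0.00637), and its other probe set did not pass (0.17 ± 0.07, adjusted p = 0.0913). Prps2, the second PRPP synthetase, stood at 9.53, 9.96 and 10.8 in ADR cultures, against 9.84, 10.3 and 10.6 in untreated cultures. Its change of -0.23 ± 0.10 did not pass (limma adjusted p = 0.0964) but passed without 1467 (0.0455) or 1570 (0.0360), and its 2 dimmer probe sets fell (-0.47 and -0.43). Impdh1, an IMP dehydrogenase, had a change of -0.0006 ± 0.12 (limma adjusted p = 0.998), with single lymphomas from -0.83 in 5043 to 1.00 in 5766.

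All 5 one-carbon genes fell, but none passed with the fibroblast covariate, where their median change was -0.08 (Shmt1 -0.06, Shmt2 -0.42, Mthfd1 0.10, Mthfd1l -0.08 and Mthfd2 -0.59). Shmt1 and Shmt2, the cytosolic and mitochondrial serine hydroxymethyltransferases that load folate with a carbon from serine, had the lowest changes of the group. Shmt1 stood at 6.35, 7.66 and 8.57 in ADR cultures, against 7.12, 8.97 and 9.43 in untreated cultures (change -0.98 ± 0.21, limma adjusted p = 0.00220). Shmt2 stood at 8.91, 9.78 and 10.6 in ADR cultures, against 10.1, 10.7 and 11.3 in untreated cultures (change -0.90 ± 0.15, limma adjusted p = 2.96e-04, lower in 13 of 14). The groups overlapped for both, Shmt1 being higher in 1467 and 2949 and Shmt2 in 2949.

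The enzymes that interconvert and release the folate-bound carbon had mean changes nearer 0. Mthfd2, the mitochondrial dehydrogenase and cyclohydrolase, stood at 7.90, 8.81 and 9.87 in ADR cultures, against 8.80, 9.47 and 10.1 in untreated cultures (change -0.49 ± 0.13, limma adjusted p = 0.0109, lower in 13 of 14). Mthfd1l, which releases formate in mitochondria, stood at 8.10, 9.01 and 9.93 in ADR cultures, against 8.68, 9.49 and 10.00 in untreated cultures. Its fall (-0.45 ± 0.16, limma adjusted p = 0.0429) did not pass when any of 9 lymphomas was left out, with adjusted p up to 0.0859. Mthfd1, the cytosolic trifunctional enzyme that makes the formyl folate used by Gart and Atic, stood at 8.06, 9.13 and 9.94 in ADR cultures, against 8.67, 9.60 and 10.3 in untreated cultures (change -0.50 ± 0.15, limma adjusted p = 0.0212). In lymphoma 2949 all 5 genes were higher after ADR, from 0.28 for Shmt2 to 0.97 for Mthfd1l. Without lymphomas 403 and 5560, which had the largest fibroblast changes, 3 of the 5 genes fell, against 2031 of all 18193 genes. Mthfd1 and Mthfd1l no longer passed there (limma adjusted p = 0.0754 and 0.150).

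Enzymes of 1 step encoded by 2 genes differed in 3 of 5 pairs. The difference between the changes of both genes was taken within each lymphoma and tested by an exact two-sided sign-flip permutation test, adjusted over the 5 pairs. Rrm2b minus Rrm2 was 0.95 ± 0.26 (SE, n = 14, exact adjusted p = 0.00631) and above 0 in 12 lymphomas, the highest being 2.77 in 2949 and the lowest -0.68 in 9584. Ctps2 minus Ctps was 0.71 ± 0.18 (exact adjusted p = 0.00427) and above 0 in 13 of 14 lymphomas. Prps2 minus Prps1 was 0.74 ± 0.11 (exact adjusted p = 0.00122) and above 0 in 13 of 14 lymphomas. These differences rest on 1 probe set per gene, and the size of a change differed between probe sets. Other Prps2 probe sets changed by -0.47 and -0.43, and other Ctps2 probe sets by 0.18 and 0.14. Those of Rrm2b changed by -0.24, -0.41 and -0.48, and those of Rrm2 by -1.17 and -1.52. For Shmt1 minus Shmt2 the difference was -0.08 ± 0.13 (exact adjusted p = 0.698), and for Mthfd1l minus Mthfd1 0.04 ± 0.15 (exact adjusted p = 0.759), with lymphomas on both sides of 0 in each.

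**Figure D3:**
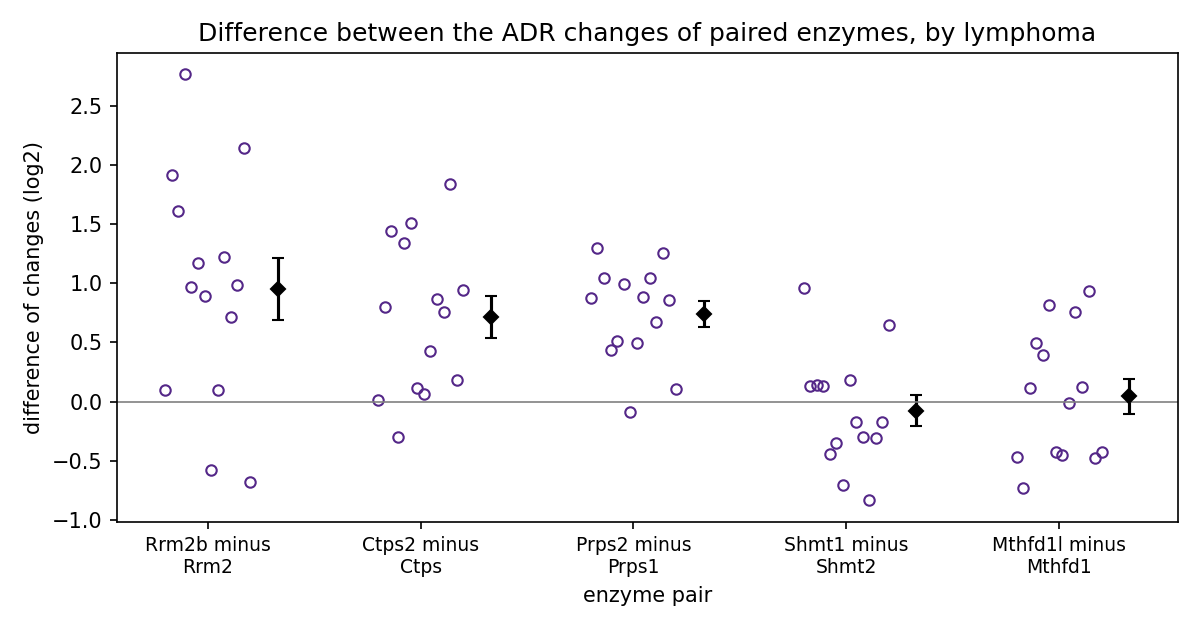
Difference between the ADR minus untreated changes (log2) of 2 genes for the same enzyme step, 1 open circle per lymphoma, with the mean and its SE beside them as a diamond. The Rrm2b, Ctps2 and Prps2 differences lie above 0 in 12, 13 and 13 of 14 lymphomas, while those of Shmt1 and Mthfd1l lie on both sides.

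The size of the changes varied across lymphomas, and it was set against the changes of the G2/M list, the fibroblast list and Myc. The changes of Rrm1, Rrm2 and Tk1 followed the mean change of the G2/M genes, with r of 0.85, 0.86 and 0.84 over 14 lymphomas (Spearman rho 0.86, 0.75 and 0.89, permutation p adjusted over 32 members = 0.00224 for each r and 0.00352, 0.0262 and 9.60e-04 for rho). Without the lymphomas at the ends of that axis, 2949 and 9584, r was 0.77, 0.55 and 0.85, and within the 11 lymphomas described as reanalysed it was 0.76, 0.78 and 0.77. No other member passed in that family of 32, the next being Tyms (r = 0.69, adjusted permutation p = 0.0567). For Dut r was 0.28 and for Gart -0.37. Over all genes 1.36% had r above 0.7, against 3 of the 32 members. Member and G2/M changes come from the same arrays.

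The changes of 7 of the 12 purine genes ran against the fibroblast change. In that family of 32, 14 members passed with a negative r and 1, Ctps2, with a positive r (0.68, adjusted permutation p = 0.0200). The lowest were Gart (r = -0.86, rho = -0.85, adjusted permutation p = 0.00352 and 0.00304), Ppat (-0.80), Dtymk (-0.79) and Shmt1 (-0.78). Without lymphomas 403 and 5560, the farthest on that axis, Gart was at -0.78, Ppat at -0.79, Dtymk at -0.84 and Shmt1 at -0.80, and within the 11 lymphomas at -0.88, -0.80, -0.78 and -0.74. Tk1 and Paics had r of 0.03 and 0.02, which were -0.39 and -0.66 without 403 and 5560. Of the 32 members 10 had r below -0.7, against 6.17% of all genes. How far fibroblast RNA itself made these relations was not tested.

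The change of Myc, whose transgene all cultures carry, gave the last family of 32 relations. Myc stood at 8.99, 10.6 and 11.9 in ADR cultures, against 10.4, 11.4 and 12.2 in untreated cultures, and fell (-0.71 ± 0.18, limma adjusted p = 0.00734). With the fibroblast covariate that call ended and the value turned, to 0.12 ± 0.19 (adjusted p = 0.783). The changes of 9 members followed it with a positive r, led by Gart (0.85, rho 0.83, adjusted permutation p = 0.00224 and 0.00328), Adsl (0.82), Cad (0.77) and Shmt1 (0.76), and Ctps2 had a negative r (-0.73, adjusted permutation p = 0.0148). An r above 0.7 was found for 6 of the 32 members and for 4.45% of all genes. Without lymphomas 5560 and 2949 these r were 0.79, 0.74, 0.79, 0.74 and -0.76, and within the 11 lymphomas 0.93, 0.87, 0.82, 0.78 and -0.75. The Myc and fibroblast changes were themselves related across lymphomas (r = -0.82), so the relations with one and with the other cannot be told apart. The G2/M change was less related to either (r = 0.20 with fibroblast, -0.42 with Myc).

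**Figure D4:**
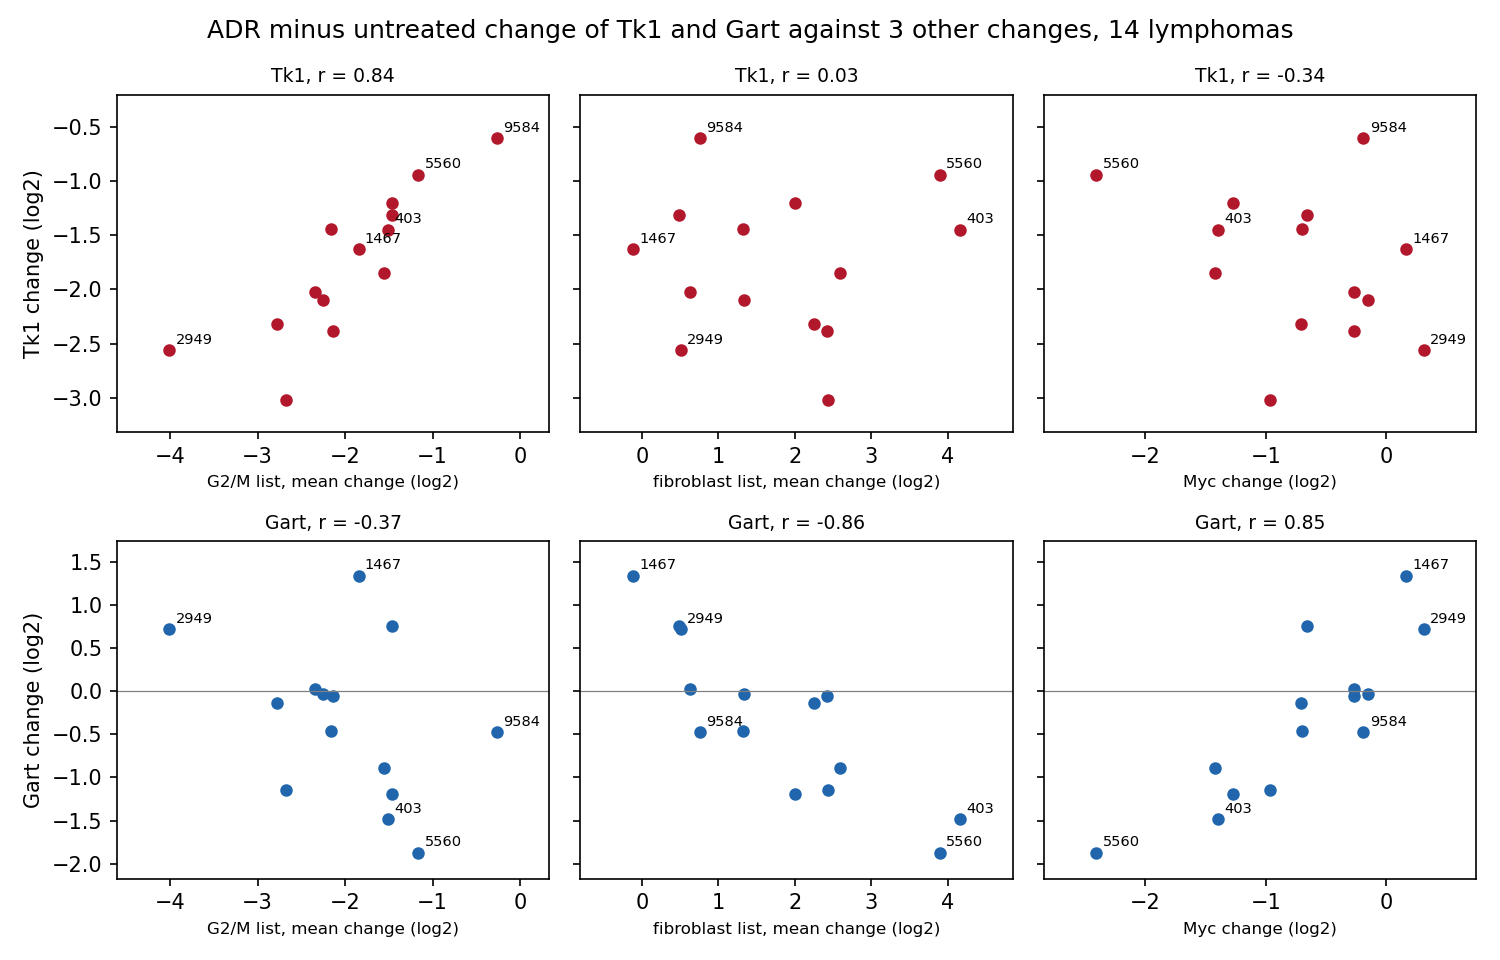
ADR minus untreated change (log2) of Tk1 (upper row) and Gart (lower row) against the mean change of the G2/M list, the mean change of the fibroblast list and the change of Myc, 1 point per lymphoma with 5 lymphomas named and Pearson r above each panel. For Tk1 r is 0.84 with the G2/M and 0.03 with the fibroblast change, and for Gart it is -0.37 and -0.86.

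The fit was repeated with the fibroblast change as a covariate, which gives each gene's change at no fibroblast change. That point lies at the low end of the data. The median fibroblast change was 1.67, and only lymphoma 1467 was below 0 (-0.12). The members' SE was then larger by a median factor of 1.49. Tk1 (-1.80 ± 0.29, limma adjusted p = 0.00228), Dut (-1.25 ± 0.21, 0.00260), Rrm1 (-1.08 ± 0.26, 0.0138), Dck (-0.86 ± 0.22, 0.0192), Prps1 (-0.72 ± 0.15, 0.00774), Paics (-0.58 ± 0.12, 0.00670) and Gmps (-0.43 ± 0.11, 0.0197) remained lower. Rrm2 no longer passed at -1.02 ± 0.38 (adjusted p = 0.0985), nor did Tyms at -0.77 ± 0.28 (0.0964) or Dtymk at -0.25 ± 0.15 (0.363). The 5 pyrimidine genes had a median of -0.19, with Ctps2 at 0.12 ± 0.13 (adjusted p = 0.656).

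Several purine enzymes turned sign there. Gart was higher at 0.73 ± 0.21 (limma adjusted p = 0.0344). Aprt, which was also higher without the covariate, kept its direction at 0.41 ± 0.10 (limma adjusted p = 0.0143). Of the 12 purine genes 7 changed sign, and their median was 0.11. Ppat stood at 0.01 ± 0.20 (adjusted p = 0.986), Pfas at 0.33 ± 0.23 (0.425), Adsl at 0.18 ± 0.18 (0.620) and Atic at 0.23 ± 0.23 (0.620). In the fit without lymphomas 403 and 5560, 17 members fell and 3 rose, against 2031 and 2457 of all 18193 genes. Samhd1 was the added rise (0.34, limma adjusted p = 0.0309).

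**Figure D5:**
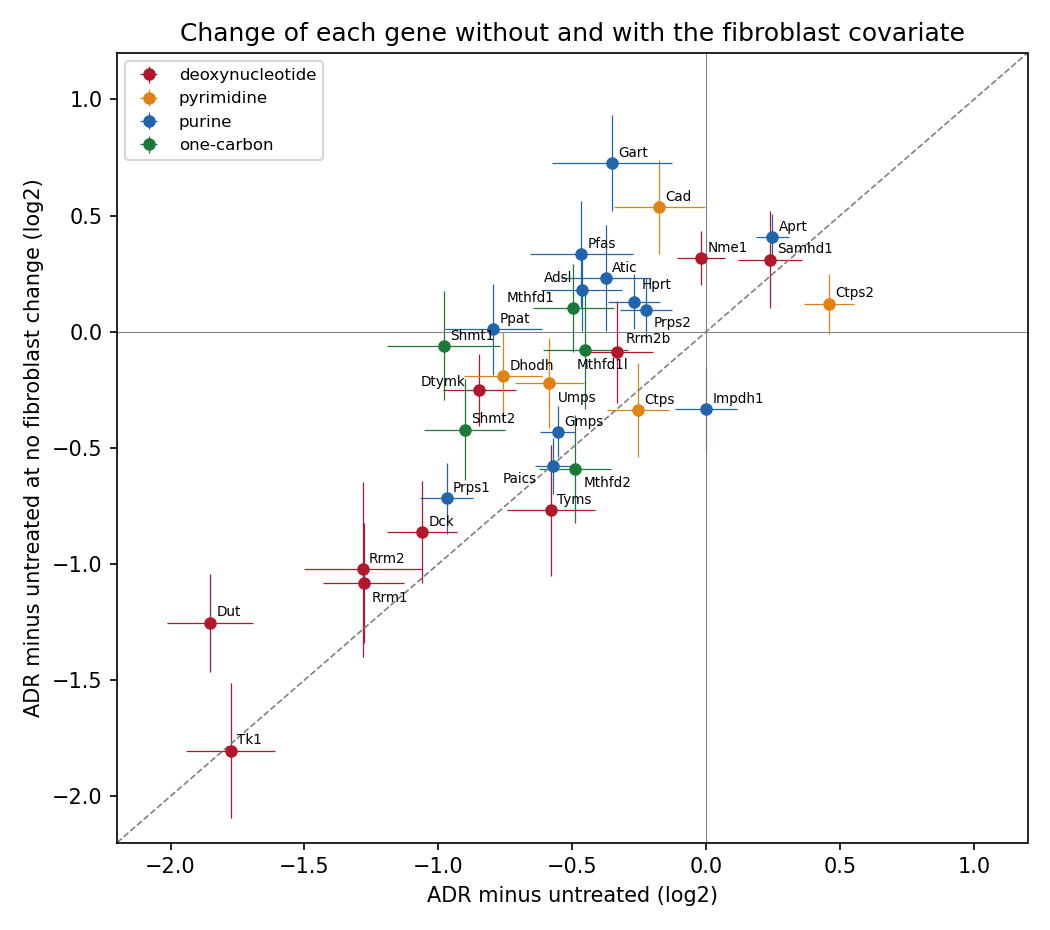
Change of each gene with its SE in the paired fit (horizontal axis, log2) and at no fibroblast change (vertical axis, log2), coloured by role, with the dashed line marking equal values. Tk1 and Paics lie close to the line, at -1.80 and -0.58 on the vertical axis, and Gart lies farthest above it, at 0.73.

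The labels tie 11 lymphomas to an earlier series and give no such note for 5043, 9583 and 9584. The median member change was -0.25 in these 3 and -0.58 in the 11. No member differed between the sets after adjustment (limma, lowest adjusted p = 0.864), and 0.0055% of all genes did. At an unadjusted p under 0.05 there were 6 members and 999 of all genes (5.49%). In size, 28 of the 32 members had the smaller change in the 3, but members share arrays and are not independent. The median changes of the G2/M (-1.38 against -2.19 in the 11), fibroblast (0.71 against 2.07) and B-cell lists (-0.35 against -0.64) were also smaller in the 3. That of the macrophage list was not (1.44 against 1.42).

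Further genes of the pathways were less uniform. Of 66 such genes chosen by name, 56 were measured, with a median change of -0.04. Of these 12 fell and 10 rose, against 13.4% lower and 15.3% higher among all genes. The lowest changes belonged to Dctpp1, a dCTP pyrophosphatase (-1.03 ± 0.14, limma adjusted p = 5.99e-05), Psat1 and Psph of serine synthesis (-1.01 ± 0.10 and -0.78 ± 0.18, adjusted p = 5.74e-06 and 0.00401), and Ahcy, which cleaves S-adenosylhomocysteine (-1.01 ± 0.09, adjusted p = 3.45e-06). The highest were Ak1, an adenylate kinase (2.34 ± 0.32, limma adjusted p = 5.18e-05), Xdh, the xanthine dehydrogenase of purine breakdown (1.98 ± 0.37, adjusted p = 8.48e-04), Upp1, a uridine phosphorylase (1.32 ± 0.24, adjusted p = 6.80e-04), and Ampd3, an AMP deaminase (1.26 ± 0.20, adjusted p = 1.73e-04). By role, the folate and serine genes had 6 lower and 2 higher of 17, the purine interconversion and breakdown genes 3 lower and 3 higher of 16. The pyrimidine salvage and breakdown genes had 1 lower and 3 higher of 9, and the deoxynucleotide genes 2 lower and 2 higher of 14. At no fibroblast change 2 of the 56 were lower and 4 higher, against 5.04% and 5.8% of all genes. The lower ones were Psat1 (-1.08, limma adjusted p = 0.00233) and Ahcy (-0.92, 0.00293). Dctpp1 (-0.38), Psph (-0.71), Ak1 (1.16), Xdh (0.13), Upp1 (0.15) and Ampd3 (0.78) no longer passed there, with adjusted p from 0.0909 for Ak1 to 0.877 for Xdh. The 4 genes that were higher in that fit, named after their values were seen, were Cmpk2, Nt5c, Ampd2 and Mtr (0.50 to 1.84).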

How the data were processed

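Biotin-labelled total RNA of 28 cultures was measured on 1-colour Affymetrix mouse arrays. The deposited values are log2 expression levels of 45101 probe sets, made by the authors with RMA in Partek 6.5 per the submitters' processing notes, which state no genome build. Genes came from an annotation dated 2016. Of the 34945 probe sets with 1 gene, the brightest per gene was kept (18193 genes), and probe sets with several genes were left out of gene tests.

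Pairing comes from the labels, and arrays of 1 lymphoma correlated at r of 0.27 to 0.61 in their deviations from the group means. In only 10 of the 14 pairs was each array the other's best match. The test was limma 3.58.1 (R 4.3.3) with lmFit, eBayes and lymphoma as block, after a check on simulated data. The p-values measure the spread between 14 lymphomas. Correlations used 100000 permutations and sign-flip tests all 16384 flips (smallest p 1.22e-04). Alternatives varied the block, probe set, filter, scaling, eBayes setting, fibroblast covariate and lymphomas included. Of an intended 6 isozyme pairs, 5 had values. Members, lists and tests were chosen with earlier results of these data known. All members are named, with the 4 highest and 4 lowest other pathway genes past the threshold. The number of arrays and probe brightness limit precision.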

Additional observations from a re-analysis of the deposited data

How the results depend on the processing

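Counts of calls were most sensitive to the fibroblast covariate. With it 917 of all genes were lower and 1056 higher, 7 members were lower, and by role 4 deoxynucleotide, 0 pyrimidine, 3 purine and 0 one-carbon members were lower. Higher were 0 pyrimidine and 2 purine members, and of the other pathway genes 2 were lower and 4 higher. It turned the direction of Nme1 (0.32), Cad (0.54), Prps2 (0.0938), Ppat (0.0111), Gart (0.73), Pfas (0.33), Adsl (0.18), Atic (0.23), Hprt (0.13) and Mthfd1 (0.10). The cause was not tested. Without lymphomas 403 and 5560, 1 deoxynucleotide member was higher, 3 one-carbon members were lower and Nme1 was at 0.0245, and over all members 4 calls ended and 2 were added. With no replicate block, which drops the pairing by lymphoma, 1 member was higher, 0 purine members were, and 2 members' calls ended. Leaving out the dimmer genes gave 6 other pathway genes higher, with fewer genes tested. With the largest-variance probe set the Mthfd1l minus Mthfd1 difference was -0.0094.

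Leaving out each lymphoma in turn gave 17 to 23 members lower and 2 to 3 higher, and 0 to 1 deoxynucleotide members higher (1 without 403). The change of Nme1 then ran from -0.0658 to 0.0134, that of Impdh1 from -0.0775 to 0.0632, and the Mthfd1l minus Mthfd1 difference from -0.0245 to 0.104. Centring arrays on their median and robust eBayes changed no member's call or direction. The random replicate block added 2 calls, and the mean of all probe sets added 3. The largest-variance probe set added 3 and ended 3. Probe sets near the low end of the scale, such as those of Tyms, have compressed changes.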
